A study of Mus musculus with 12 samples.

Results

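Rhes (Rasd2), its relative Rasd1 and regulators of the small GTPases Ras and Rap were measured in mouse striatum. The mice carried a Huntington's disease (HD) transgene or not, and had or lacked the autophagy receptor p62 (Sqstm1). The 8 genes were Rasd1, Rasd2, Rasgrp1, Rasgrp2, Rasgrp3, Rasgrf1, Rasgrf2 and Rap1gap, chosen by name with earlier results of these data known. All 8 were found among the 19248 genes that the array annotation names by a single symbol. Each was read by 1 probe set.

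p62 knockout mice had been crossed with HD model mice, and the striatum was taken at 8 weeks of age. There were 4 groups of 3 mice: non-transgenic mice with normal p62 (NT_p62WT), non-transgenic mice lacking p62 (NT_p62KO), HD transgenic mice with normal p62 (HD_p62WT) and HD transgenic mice lacking p62 (HD_p62KO). Every mouse was hybridised to an Affymetrix whole-transcript array from 100 ng of total RNA. The labels call the mice biological replicates and do not name the HD line, the promoter of the transgene, the strain or the sex.

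Ras and Rap proteins are molecular switches that signal when they hold GTP and fall silent when they hold GDP. Guanine nucleotide exchange factors load them with GTP, and GTPase-activating proteins make them hydrolyse it. Striatal projection neurons, the cells most affected in Huntington's disease, are rich in Rhes, a Ras-like GTPase reported to bind mutant huntingtin, and in the calcium- and diacylglycerol-regulated exchange factors CalDAG-GEFI (Rasgrp2, acting mainly on Rap) and CalDAG-GEFII (Rasgrp1, acting mainly on Ras).

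Values below are log2 array signals as deposited, and a difference of 1 is a doubling. Levels were compared between mice for the same gene, because probe sets of different genes differ in their response. Differences between related genes within a mouse, given below, were likewise compared only between groups of mice. The Sqstm1 probe set checked the labels: its log2 level was 11.19 to 11.75 in the 6 mice labelled with normal p62 and 8.44 to 9.13 in the 6 labelled p62 knockout. Array medians lay between 7.79 and 7.83 and correlations within groups between 0.987 and 0.995. The spread of values on an array differed somewhat, from an SD of 1.585 in NT_p62KO replicate 3 to 1.728 in HD_p62KO replicate 2. Of 12 listed medium spiny neuron markers 9 were measured, and among them Drd1, Drd2, Penk and Ppp1r1b read at or above 9.95 in every mouse. The mean log2 level of these 9 markers was 11.25 to 11.53 in the non-transgenic mice and 10.81 to 10.98 in the HD mice. Tac1, the substance P precursor, went the other way, at 0.33 in the HD effect with p62 (adjusted p = 0.0492) and 0.23 without (0.0853). In bulk tissue, fewer cells of a type and less RNA per cell cannot be told apart. Mean levels of 8 cortical excitatory neuron markers were 7.79 to 8.82 in the non-transgenic and 7.56 to 8.36 in the HD mice. Means of 9 interneuron markers were 8.72 to 8.96 and 8.24 to 8.45, those of 8 oligodendrocyte markers 11.06 to 11.27 and 10.83 to 11.04, and those of 7 astrocyte markers 9.6 to 9.77 and 9.38 to 9.57, without overlap in each case. Means of 10 choroid plexus markers were 7.1 to 7.48 in NT_p62WT and 8.23 to 8.47 in NT_p62KO, without overlap. In the HD mice they were 7 to 8.35 with p62 and 7 to 9.1 without. The part of these cell types in the results below was not tested, beyond an alternative fit with the choroid plexus mean as covariate.

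Of all pairs of members, Rasd2 and Rasgrp2 had the closest values across the mice, so the sequences around their starts are shown, with that of Rasgrp1, a close relative of Rasgrp2 whose difference was smaller. RefSeq (GRCm38.p6) promoter windows, 250 bases before to 50 bases after each start, were held for 7 of the 8 members, 15 windows in all. The windows are Rasd2 on chr8:75213694-75213993 (plus strand), Rasgrp2 on chr19:6399625-6399924 and chr19:6401455-6401754 (plus strand) and Rasgrp1 on chr2:117342828-117343127 (minus strand). They read 5′ to 3′ along the gene, and capitals mark the GC box, GGGCGG on either strand.
Rasd2: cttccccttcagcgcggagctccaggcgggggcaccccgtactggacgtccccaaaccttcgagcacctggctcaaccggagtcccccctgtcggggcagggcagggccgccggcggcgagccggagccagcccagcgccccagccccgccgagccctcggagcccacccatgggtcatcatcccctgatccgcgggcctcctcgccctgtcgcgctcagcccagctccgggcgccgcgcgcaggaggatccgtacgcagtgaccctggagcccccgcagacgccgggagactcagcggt
Rasgrp2 upstream start: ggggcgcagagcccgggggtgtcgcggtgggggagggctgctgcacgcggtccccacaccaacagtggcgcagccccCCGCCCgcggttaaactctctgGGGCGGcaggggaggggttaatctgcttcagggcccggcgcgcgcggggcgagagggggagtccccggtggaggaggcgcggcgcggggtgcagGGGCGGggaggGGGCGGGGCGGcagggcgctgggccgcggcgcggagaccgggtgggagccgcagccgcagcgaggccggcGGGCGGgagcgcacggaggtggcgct
Rasgrp2 downstream start: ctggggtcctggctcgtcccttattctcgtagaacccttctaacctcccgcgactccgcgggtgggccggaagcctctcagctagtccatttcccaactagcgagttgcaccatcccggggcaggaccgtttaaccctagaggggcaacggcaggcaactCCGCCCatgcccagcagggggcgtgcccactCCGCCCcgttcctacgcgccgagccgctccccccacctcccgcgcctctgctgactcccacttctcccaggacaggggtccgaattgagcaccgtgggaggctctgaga
Rasgrp1: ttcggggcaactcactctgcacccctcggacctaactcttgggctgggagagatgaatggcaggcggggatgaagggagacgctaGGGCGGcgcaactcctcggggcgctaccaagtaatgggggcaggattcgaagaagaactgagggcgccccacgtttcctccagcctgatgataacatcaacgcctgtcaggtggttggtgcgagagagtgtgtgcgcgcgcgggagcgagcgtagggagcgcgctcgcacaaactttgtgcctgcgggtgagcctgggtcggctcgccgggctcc
Both starts of Rasgrp2 were GC-rich (80% and 66% G or C, against a median of 52.7% over 32851 windows of 300 bases), and they held 6 and 2 GC boxes, some of them overlapping. The Rasd2 window was 74.7% G or C and held none in these letters. Rasgrp1 held 1. A GC box occurred in 35.7% of all windows. Neither the CRE core TGACG (20.8% of all windows) nor the EGR site GCGNGGGCG (5.55%), searched on both strands, was found in these 4 windows. These matches are a description of the letters.

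The HD transgene was accompanied by lower Rasd2 and Rasgrp2 in both p62 backgrounds, by smaller decreases of Rasgrp1 and Rap1gap that passed without p62 and in the average of both backgrounds, and by no called change of Rasd1, Rasgrp3, Rasgrf1 or Rasgrf2. With p62 present, 2 of the 8 members were lower and none higher at an adjusted p below 0.05 (limma, Benjamini-Hochberg over all genes). Over all 19248 genes 3.24% were lower, 3.85% higher and 7.1% changed in either direction. Without p62, 4 of the 8 were lower and none higher, beside 8.34% of all genes lower, 13.3% higher and 21.7% in either direction. Since the members were chosen with earlier results of these data known, these counts are a description. The median log2 difference of the members was -0.248 with p62 and -0.169 without, against -0.009 and -0.019 over all genes. The 2 HD comparisons take their means from different mice but share a spread per gene estimated from all 12. They are therefore not fully independent. Their average, called the mean HD effect below, uses all 12 mice and is no independent evidence; in it 4 members were lower, beside 15% of all genes lower and 35% changed in either direction.

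**Figure D1:**
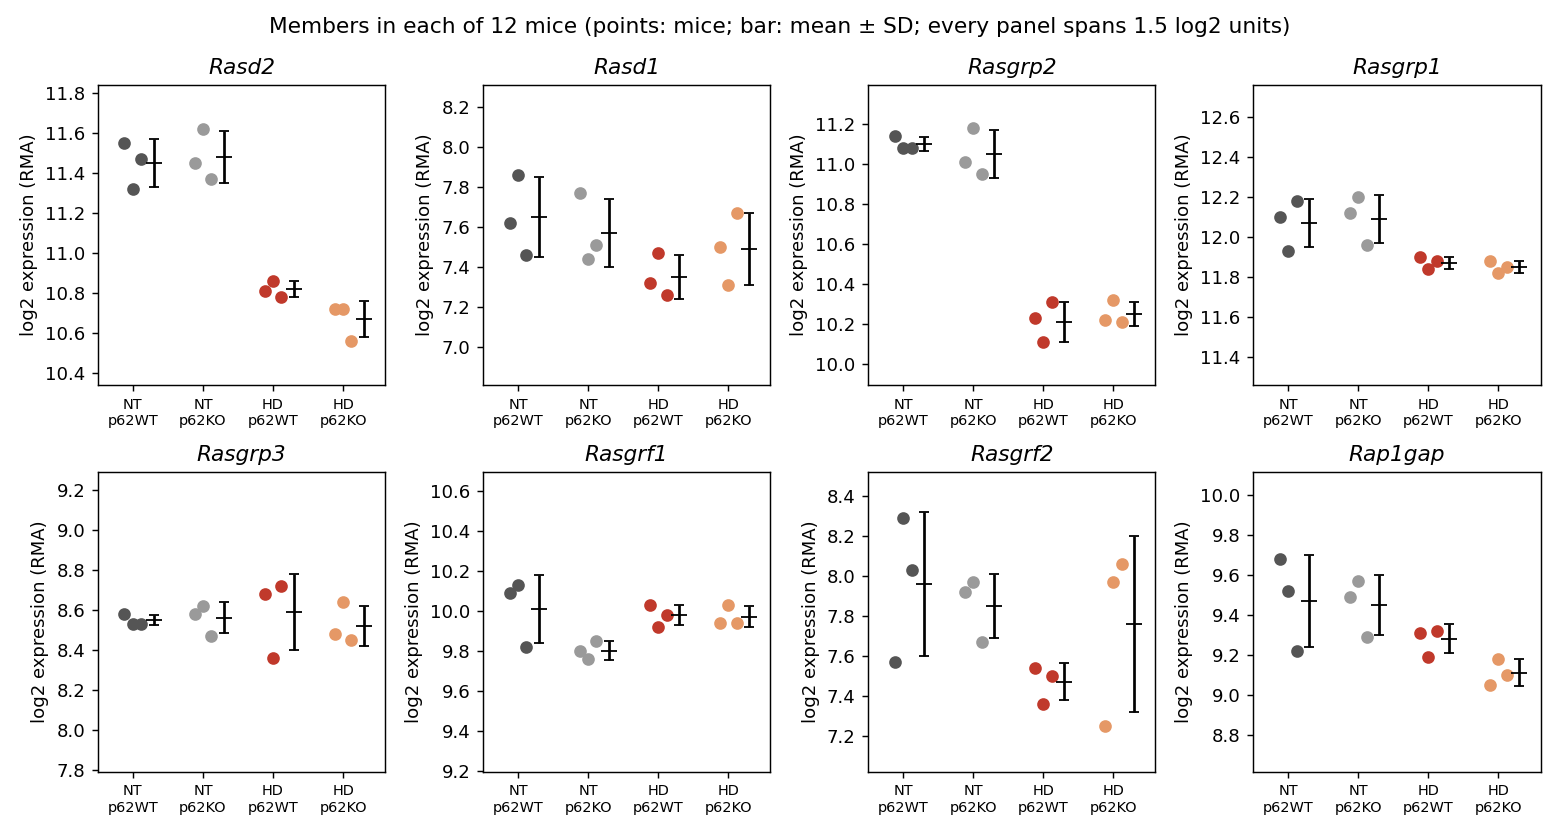
Log2 array signal (vertical axis) of the 8 members in each of the 12 mice, by group (horizontal axis). Points are mice, bars are the mean ± SD of 3 mice, and every panel spans the same number of log2 units. For Rasd2, Rasgrp2 and Rasgrp1 all 6 HD mice sit below all 6 non-transgenic mice, while Rasgrp3 overlaps throughout.

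Rasd2 encodes Rhes, a Ras-like GTPase enriched in striatal projection neurons that acts on dopamine receptor and mTOR signalling and has SUMO E3 ligase activity. Its log2 level was 11.55, 11.32 and 11.47 in the NT_p62WT mice and 10.81, 10.86 and 10.78 in the HD_p62WT mice. In the mice lacking p62 it was 11.45, 11.62 and 11.37 without the transgene and 10.72, 10.72 and 10.56 with it. Every HD mouse read below every non-transgenic mouse, the lowest non-transgenic value being 11.32 and the highest HD value 10.86. With p62, the group means were 11.45 ± 0.12 and 10.82 ± 0.042 (SD, n = 3 each), a log2 difference of -0.63 ± 0.085 (SE), which left 64.7% of the control signal (limma adjusted p = 0.00189). Without p62, the difference was -0.81 ± 0.085, leaving 56.9% (adjusted p = 0.000266). Both differences exceed the residual SD between mice of a group, 0.1 for this gene. Measured against the non-transgenic mean of the same p62 genotype, the 6 HD mice ranged from -0.58 in HD_p62WT replicate 2 to -0.92 in HD_p62KO replicate 3.

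Rasd1, also called Dexras1 or AGS1, is the closest relative of Rhes and was first described as a dexamethasone-induced Ras protein. Its log2 level was 7.62, 7.86 and 7.46 in NT_p62WT, 7.77, 7.44 and 7.51 in NT_p62KO, 7.32, 7.47 and 7.26 in HD_p62WT and 7.5, 7.31 and 7.67 in HD_p62KO. The groups overlapped in both p62 backgrounds. The difference was -0.3 ± 0.12 with p62 (adjusted p = 0.159) and -0.08 ± 0.12 without it (adjusted p = 0.643), and the 95% intervals ran from -0.57 to -0.03 and from -0.35 to 0.19. Its probe set was dim, at percentile 42.7 of the array's genes by mean signal, and its residual SD was 0.17.

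Rasgrp2, CalDAG-GEFI, loads Rap1 with GTP in response to calcium and has been linked to the striatal projection neurons' matrix compartment. It had the largest decrease of the members with p62 present. Its log2 level was 11.14, 11.08 and 11.08 in NT_p62WT and 10.23, 10.11 and 10.31 in HD_p62WT. Without p62 it was 11.01, 11.18 and 10.95 in the non-transgenic and 10.22, 10.32 and 10.21 in the HD mice. The highest HD mouse (10.32) read well below the lowest non-transgenic mouse (10.95). The difference was -0.89 ± 0.078 with p62, leaving 54% of the control signal (limma adjusted p = 0.000207). That placed Rasgrp2 at rank 7 of 19248 genes by p in this comparison. Without p62 the difference was -0.8 ± 0.078, leaving 57.4% (adjusted p = 0.000209), at rank 21 by p.

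Rasgrp1, CalDAG-GEFII, loads Ras with GTP and couples diacylglycerol and calcium to the ERK kinases. Its log2 level was 12.1, 11.93 and 12.18 in NT_p62WT, 12.12, 12.2 and 11.96 in NT_p62KO, 11.9, 11.84 and 11.88 in HD_p62WT and 11.88, 11.82 and 11.85 in HD_p62KO. All 6 HD mice read below all 6 non-transgenic mice, by as little as the step from 11.93 to 11.9. The difference was -0.2 ± 0.079 with p62 (adjusted p = 0.14) and -0.24 ± 0.079 without (adjusted p = 0.0477), the latter leaving 84.6% of the control signal. The mean HD effect was -0.22 ± 0.056 (adjusted p = 0.0112). The call without p62 was lost on leaving out any single HD mouse of either p62 genotype, NT_p62KO replicate 1 or 2, or NT_p62WT replicate 1 (adjusted p from 0.036 to 0.141 over the 12 single omissions), and without the 3 arrays of smallest spread (0.0531), while the mean HD effect passed in all 12 (0.00599 to 0.0307).

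Rasgrp3 belongs to the same family and acts on both Ras and Rap. Its log2 level was 8.58, 8.53 and 8.53 in NT_p62WT, 8.58, 8.62 and 8.47 in NT_p62KO, 8.68, 8.36 and 8.72 in HD_p62WT and 8.48, 8.64 and 8.45 in HD_p62KO. No pair of groups separated. The difference was 0.04 ± 0.094 with p62 (95% interval -0.17 to 0.24) and -0.04 ± 0.094 without (-0.24 to 0.17). The sign of the difference with p62 changed under a further quantile normalization (-0.02) and with array SD as covariate (-0.05). Neither difference passed.

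Rasgrf1 and Rasgrf2 are exchange factors that bind calmodulin and couple calcium entry through glutamate receptors to Ras. Rasgrf1 read 10.09, 10.13 and 9.82 in NT_p62WT, 9.8, 9.76 and 9.85 in NT_p62KO, 10.03, 9.92 and 9.98 in HD_p62WT and 9.94, 10.03 and 9.94 in HD_p62KO. Its HD difference was -0.04 ± 0.083 with p62 (adjusted p = 0.815) and 0.17 ± 0.083 without (adjusted p = 0.15). In the mice lacking p62 the HD group lay above the non-transgenic group without overlap, but the difference did not pass. Rasgrf2 was the most variable member, with a residual SD of 0.3. It read 7.57, 8.29 and 8.03 in NT_p62WT, 7.92, 7.97 and 7.67 in NT_p62KO, 7.54, 7.36 and 7.5 in HD_p62WT and 7.25, 7.97 and 8.06 in HD_p62KO. The HD_p62WT mice all lay below the NT_p62WT mice, while 1 HD_p62KO mouse was far below the other 2. Its difference of -0.49 ± 0.21 with p62 (adjusted p = 0.158) and -0.1 ± 0.21 without (adjusted p = 0.746) did not pass. All 8 measured cortical excitatory markers had negative differences in both HD effects. Their median was -0.48 with p62, with none called, and -0.38 without, with 1 called lower. HD_p62KO replicate 1, the mouse lowest in Rasgrf2, had a mean of those markers of 8.16. The lowest marker mean, 7.56, was in HD_p62KO replicate 2, whose Rasgrf2 read 7.97. The part of these markers in the Rasgrf2 values was not tested.

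Rap1gap makes Rap1 hydrolyse its GTP and so opposes Rasgrp2. It read 9.68, 9.52 and 9.22 in NT_p62WT, 9.49, 9.57 and 9.29 in NT_p62KO, 9.31, 9.19 and 9.32 in HD_p62WT and 9.05, 9.18 and 9.1 in HD_p62KO. With p62 the groups overlapped through NT_p62WT replicate 3, and without p62 they did not. The difference was -0.2 ± 0.11 with p62 (adjusted p = 0.288) and -0.34 ± 0.11 without, leaving 79% of the control signal (adjusted p = 0.0462). The mean HD effect was -0.27 ± 0.078 (adjusted p = 0.0207), and all 6 HD mice lay below the non-transgenic mean of their p62 genotype. The call without p62 was lost on leaving out any HD_p62KO mouse, HD_p62WT replicate 1 or 3, NT_p62KO replicate 1 or 2, or NT_p62WT replicate 2 (adjusted p from 0.0256 to 0.115), and without the array of smallest spread in each of 3 groups (0.0678). The mean HD effect passed in all 12 single omissions (0.00584 to 0.0483).

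Over the members, groups did not overlap for 4 of 8 genes in the HD effect with p62 (33.1% of all genes) and for 5 of 8 without (39.4%). For Rasd2, Rasgrp2 and Rasgrp1 all 6 HD mice lay below all 6 non-transgenic mice, a separation in either direction that 16.2% of all genes had.

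**Figure D2:**
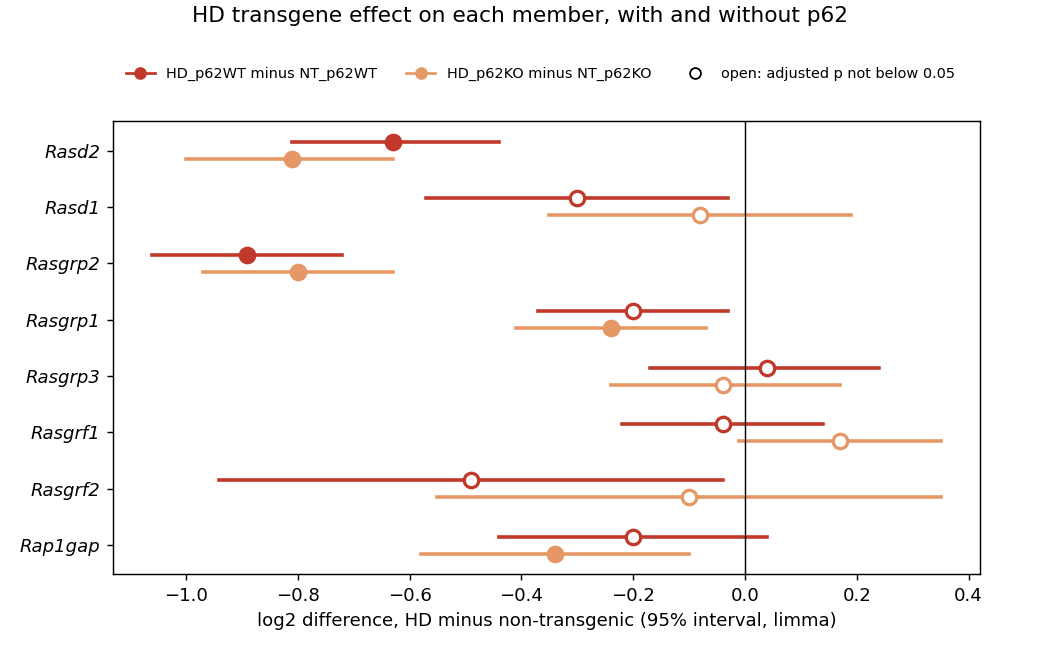
Log2 difference of each member between HD and non-transgenic mice (horizontal axis), with its 95% interval, for mice with p62 (dark) and without p62 (light). Filled points had an adjusted p below 0.05: Rasd2 and Rasgrp2 in both comparisons, and Rasgrp1 and Rap1gap without p62.

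Close relatives were next set against each other within each mouse. The 5 pairs are all pairs within the Rasd, Rasgrp and Rasgrf families and were chosen after the values were seen. Their differences are therefore given as a description, without p-values, and follow from the member differences above. They set probe sets of different brightness against each other, and those of Rasd1 and Rasgrf2 were dim. The Rasgrp2 value minus the Rasgrp1 value differed between HD and non-transgenic mice by -0.69 with p62 and -0.56 without. For Rasgrp2 minus Rasgrp3 these were -0.93 and -0.76. In both pairs all 6 HD mice lay below the non-transgenic mean of their p62 genotype. Rasd2 minus Rasd1 gave -0.33 with p62 and -0.73 without, again with 6 of 6 HD mice lower. Rasgrp1 minus Rasgrp3 gave -0.24 and -0.2 (6 of 6), and Rasgrf2 minus Rasgrf1 -0.46 and -0.27 (5 of 6).

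Loss of p62 itself was not accompanied by a called change of any member. In each of the p62 comparisons 0 of the 8 members passed (limma adjusted p = 1 for all), beside 0.0052% of all genes, which is the single gene Sqstm1; at an unadjusted p below 0.05 there was 1 member in the non-transgenic mice and 0 in the HD mice. That member was Rasgrf1, at -0.21 (95% interval -0.39 to -0.03). The choroid plexus marker means were higher in NT_p62KO than in NT_p62WT without overlap. Over 15 alternative settings, including the choroid plexus mean as covariate, the Rasgrf1 difference ran from -0.26 to -0.18 without a call. Its cause was not tested. In the non-transgenic mice the interval for Rasd2 was -0.15 to 0.22 and for Rasgrp2 -0.23 to 0.11, so these bounds, not equality, are what the data give. In the HD mice Rasd2 was -0.15 (-0.34 to 0.03) and Rap1gap -0.17 (-0.41 to 0.07). No member separated between the groups in the non-transgenic mice, where 7.87% of all genes did. For Rasd2 and Rap1gap the 3 HD_p62KO mice all read below the 3 HD_p62WT mice, a lack of overlap seen in 7.38% of all genes. The medium spiny neuron markers moved the same way there: all 9 were negative, with a median of -0.12, and none was called. Their part in these values was not tested.

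Whether the transgene's effect differed between mice with and without p62 was tested as the difference of the HD effects. No member passed (limma adjusted p = 0.991 for all 8), and neither did any of the 19248 genes (0%; 665 genes and 0 members at an unadjusted p below 0.05). For Rasd2 the effect was larger without p62 by 0.19 on the log2 scale, as a difference of -0.19 with a 95% interval from -0.45 to 0.08. For Rasgrp2 the difference was 0.09 (-0.15 to 0.33). Effects that differ by up to about these bounds could not be told apart with 3 mice per group. Rasgrf2 had the widest interval (-0.24 to 1.03), and the other 5 ran from -0.48 for Rap1gap at the lowest to 0.6 for Rasd1 at the highest.

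Genes whose values ran closest to each lowered member were found by the root mean square difference between log2 values, each centred on its gene's mean over the 12 mice. This measure follows the group differences as well as the mice, so it is given as a description. Nearest to Rasd2 were Inf2 (0.044), an actin-severing formin, Syndig1l (0.047) and Rgs9 (0.055), a striatal inhibitor of G-protein signalling, where the median gene stood at 0.386. Nearest to Rasgrp2 were Adcy5 (0.07), the main adenylyl cyclase of the striatum, Ctxn1 (0.079) and Ddn (0.085), which encodes dendrin, a postsynaptic protein. Inf2 read 10.21, 9.94 and 10.18 in NT_p62WT and 9.47, 9.56 and 9.54 in HD_p62WT. The HD differences with and without p62 were -0.59 and -0.78 for Inf2, -0.61 and -0.88 for Syndig1l, -0.63 and -0.87 for Rgs9, -0.78 and -0.84 for Adcy5, -0.77 and -0.8 for Ctxn1 and -0.77 and -0.79 for Ddn, all past the threshold. Since these 6 genes were picked for their nearness over the same mice, their decrease follows from that choice. The genes nearest to Rasgrp1 were Rbfox1 (0.03), a neuronal splicing factor, Ubqln4 (0.041) and Neto1 (0.041). Nearest to Rap1gap were Adgrb1 (0.089), Gba2 (0.092) and Atxn1 (0.094). Among the members themselves, Rasd2 and Rasgrp2 were the nearest pair (0.122) and Rasgrp2 and Rasgrf1 the farthest (0.47).

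**Figure D3:**
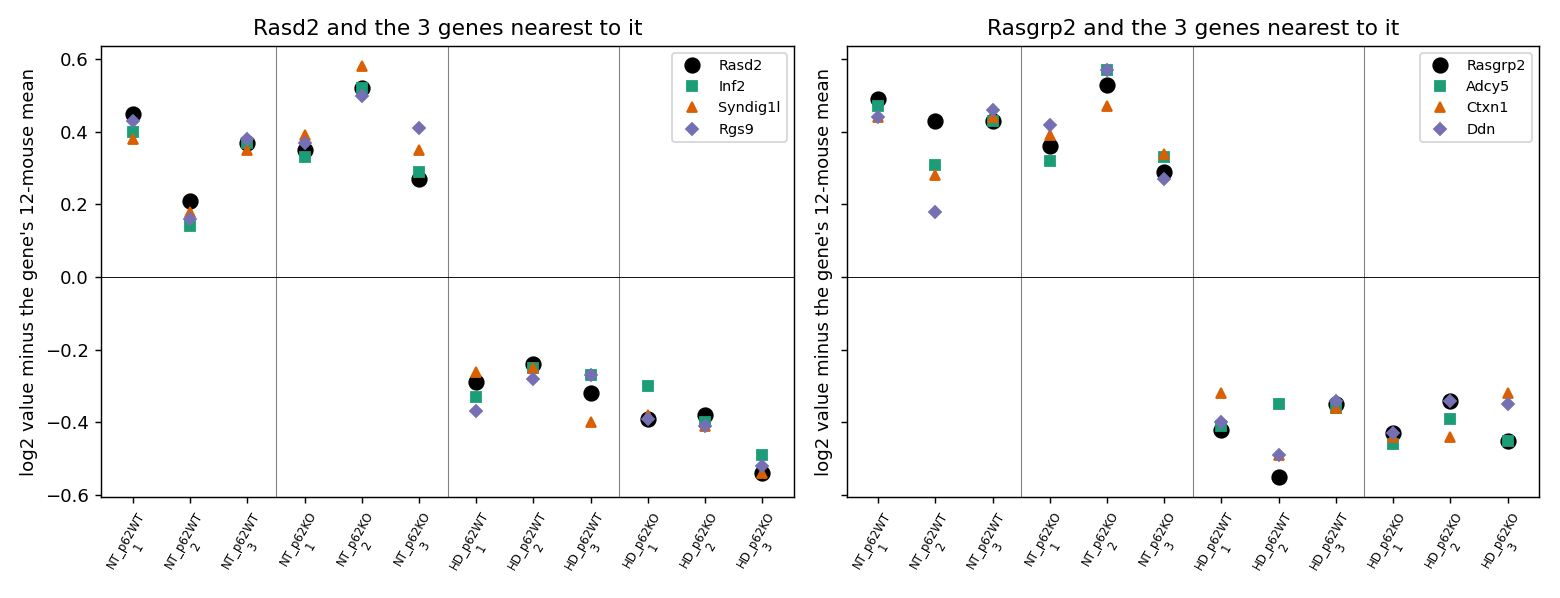
Log2 value of each mouse minus the gene's mean over the 12 mice (vertical axis), by mouse (horizontal axis, grouped), for Rasd2 with Inf2, Syndig1l and Rgs9 (left) and for Rasgrp2 with Adcy5, Ctxn1 and Ddn (right). All 8 genes lie above 0 in every non-transgenic mouse and below 0 in every HD mouse.

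Other genes around the members were described by 6 lists, 112 measured genes in all. Besides Ras and Rap pathway genes they include reported Rhes partners and glucocorticoid-induced genes. In the mean HD effect 27 of the 112 were higher and 20 lower, beside 19.9% and 15% of all genes. Reported Rhes partners gave 6 of the higher calls and glucocorticoid-induced genes 8, and neither list gave a lower one. None of the 112 was called in either p62 comparison or in the difference of the HD effects. Several counts for the 2 HD effects taken singly moved by over 1.5 times when single mice were left out. The lower GTPases of the HD effect with p62, for example, numbered 5 and between 0 and 6 on single omissions, with a change of over 1.5 times without HD_p62KO replicate 3, HD_p62WT replicate 1 or 3, or NT_p62WT replicate 1 or 3.

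Of 28 measured Ras family GTPases, 8 were lower and 4 higher in the mean HD effect (median -0.03). The 4 became 2 without HD_p62WT replicate 1 or 3 and ran from 0 to 6 over the other alternatives. The lower ones included Rem2, an activity-regulated GTPase that restrains calcium channels, at -0.46 ± 0.089 with p62 (adjusted p = 0.0133) and -0.55 without (adjusted p = 0.00298). Its log2 level was 8.94, 8.65 and 8.83 in NT_p62WT against 8.35, 8.33 and 8.37 in HD_p62WT. Rasl10a had the largest drop of the list, -0.66 ± 0.15 with p62 and -0.97 ± 0.15 without (adjusted p = 0.0271 and 0.0029). Its relative Rasl10b was at -0.35 and -0.52, and Rerg at -0.43 and -0.37, and all 4 of these values passed. Rit2, a neuronal GTPase, was the brightest of the list that did not pass, at -0.11 and 0.07.

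Of 18 other exchange factors measured, 3 were lower and 3 higher in the mean HD effect. Sos1 and Sos2, the general exchange factors that receptor tyrosine kinases recruit to Ras, were higher: Sos1 by 0.47 ± 0.093 with p62 and 0.6 without (adjusted p = 0.0139 and 0.00283), and Sos2 by 0.39 and 0.55 (0.0268 and 0.00345). Sos1 read 8.07, 8.04 and 7.86 in NT_p62WT and 8.51, 8.34 and 8.53 in HD_p62WT. Rasgef1a (-0.38 and -0.41) and Rasgef1c (-0.41 and -0.61) were lower in both backgrounds. The third higher factor, Rapgef6, named after its values were seen, was at 0.24 in the mean HD effect (adjusted p = 0.014). Rapgef2, a Rap exchange factor and the brightest that did not pass, was at -0.11 and -0.1. Of 20 GTPase-activating proteins 5 were lower and 6 higher. Rap1gap2, the closest relative of Rap1gap, was at -0.32 ± 0.075 with p62 and -0.28 without (adjusted p = 0.0289 and 0.0237), and Sipa1l1, a Rap-directed protein of dendritic spines, at -0.32 and -0.46, called in the second only. Rasa2, which acts on Ras, was at 0.24 with p62 (0.213) and 0.41 without (0.0252). Ralgapb, a subunit of the Ral-directed complexes, was at 0.14 in both and passed in neither. Over the other alternatives the higher GTPase-activating proteins numbered between 0 and 6 and the lower ones between 3 and 6, and the lower exchange factors between 3 and 6.

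In the ERK cascade downstream of Ras, 4 of 15 measured genes were lower and none higher in the mean HD effect. Without the 3 arrays of smallest spread 2 were lower. The higher count reached 2 at most on single omissions (above 0 without HD_p62KO replicate 1, HD_p62WT replicate 2 or NT_p62KO replicate 2) and 3 at most over the other alternatives. Ptpn5, which encodes the striatal phosphatase STEP that switches off ERK, read 11.23, 11.17 and 11.17 in NT_p62WT against 10.81, 10.78 and 10.8 in HD_p62WT, a difference of -0.39 ± 0.075 (adjusted p = 0.0122), and -0.5 without p62 (0.00209). Rps6ka5 (MSK1), a nuclear kinase that ERK activates, was at -0.38 and -0.5 (0.0314 and 0.00515). The feedback inhibitor Spry2 was at -0.37 with p62 (0.0365) and -0.17 without (0.208), and the difference between those 2 effects did not pass. The kinase Araf was at 0.1 and 0.26 and passed in neither.

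Of 13 measured reported partners of Rhes, 6 were higher and none lower in the mean HD effect, and the median was 0.13 with p62 and 0.21 without. Ahi1, a ciliary protein reported to bind huntingtin-associated protein 1, was at 0.4 ± 0.12 with p62 (adjusted p = 0.0704) and 0.69 without (0.00503). Acbd3 was at 0.18 and 0.29 (0.099 and 0.0106), and Sae1, a SUMO-activating subunit, at 0.25 and 0.36 (0.105 and 0.0161). Sumo2, a SUMO protein, was at 0.18 and 0.22 (0.154 and 0.0523). Over other alternatives the count of higher partners ran from 2 to 9. Of 19 glucocorticoid-induced genes, to which Rasd1 also belongs, 8 were higher and none lower in the mean HD effect, with a median of 0.21 with p62 and 0.35 without. Errfi1 was at 0.42 and 0.55 (0.0459 and 0.00876), Xdh at 0.54 and 0.35 (0.0239 and 0.0582) and Tsc22d3 at 0.26 and 0.43 (0.105 and 0.0112). Sult1a1 was at 0.14 and 0.71 (0.621 and 0.0117), and Mt2, a metallothionein, at -0.03 and 0.06. Without the 3 arrays of smallest spread 4 were higher and 1 lower, and 1 was lower at most on single omissions (HD_p62KO replicate 2, NT_p62KO replicate 2 or 3). Over the other alternatives the higher count ran from 4 to 10 and the lower count from 0 to 3.

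**Figure D4:**
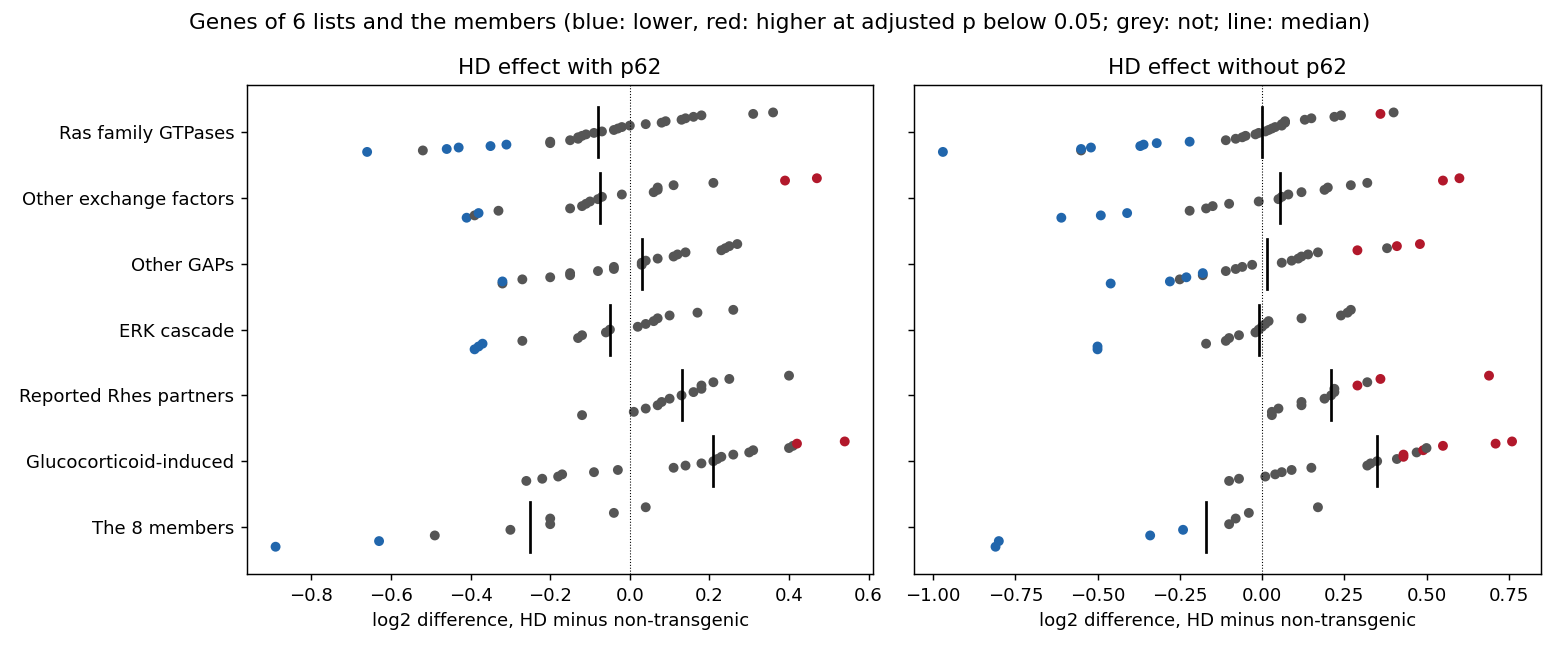
Log2 difference between HD and non-transgenic mice (horizontal axis; the 2 panels have their own ranges) for the genes of the 6 lists and the 8 members, with p62 (left) and without (right). Blue and red points are lower and higher at an adjusted p below 0.05, and lines are medians. The member medians were -0.248 and -0.169.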

How the data were processed

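Striatal RNA from 12 mice (4 groups of 3) was measured on Affymetrix whole-transcript arrays. The deposited values are log2 expression, made by the authors with RMA per the submitters' processing notes. RMA's version and the annotation build are not stated in those notes. Of 24055 probe sets, 19942 have a single symbol, 1225 several and 2888 are not listed; the brightest probe set per symbol left 19248 genes, and log2 values ran from 1.99 to 13.77. limma 3.58.1 (R 4.3.3) was fitted to all 12 arrays with a mean for each group and no replicate block, which left 8 residual degrees of freedom, and Benjamini-Hochberg adjustment ran over all genes within each of 6 contrasts (threshold 0.05). Precision is limited by 3 mice a group. The p-values set each mean difference against the spread between mice, pooled over the 4 groups and moderated with the spread of all genes.

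The members and lists were chosen with earlier results of these data known. The named genes were all members and Sqstm1, and from each pathway list up to 3 called genes with the smallest p per HD effect and the brightest uncalled gene, plus the 3 genes nearest to each lowered member.

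Replicate numbers were not used to pair the mice. Deviations of same-numbered mice correlated between -0.34 and 0.21 over 18 pairs, and 2 of 12 mice correlated best with their own number. This check cannot exclude shared handling by number, so results with a replicate block are given below. Scripts were tested on simulated data with known changes. Of 100 log2 changes of 0.5, 56 were called in the HD effect with p62 and 51 in that without. Of 100 changes of 1, 94 and 96 were called, and unchanged genes gave 13 and 9 false calls. These shares depend on how many genes change, so they are no estimate of power for these data. Alternatives were other normalizations, filters, covariates, array weights, a replicate block and leaving out mice. Promoter windows are RefSeq's (GRCm38.p6), and no window for Rasd1 was used here.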

Additional observations from a re-analysis of the deposited data

How the results depend on the processing

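The calls of Rasd2 and Rasgrp2 in both HD effects, and of all 4 lowered members in the mean HD effect, passed at 0.05 in every alternative run: 14 or 15 other settings and 12 single omissions each. The count of lower members without p62 was 4, became 2 with a replicate block, with only the groups compared, or at an adjusted p below 0.01, and ran from 2 to 4 on single omissions. At 0.01 the mean HD effect also called 2. With the replicate block, the adjusted p of Rasgrp1 without p62 was 0.0803 and that of Rap1gap 0.0557. With only the groups compared these were 0.0982 and 0.06. Rasgrp1 also missed with array SD as covariate (-0.3, against -0.24 without it; 0.102), and Rap1gap with the choroid plexus mean as covariate (-0.33, against -0.34; 0.0586), so the differences did not shrink by more than 0.01. Calls were gained by Rasgrp1 with p62 under array weights (-0.21, adjusted p = 0.0361), by Rasd1 in the mean HD effect under array weights (-0.22, 0.0395), and by Rasgrf2 with array SD as covariate (-0.69 with p62, 0.0429; mean -0.58, 0.0319).

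At the 0.05 threshold, counts over all genes ran from 398 (without HD_p62WT replicate 3) to 4625 (array weights) with p62, main 1366, from 843 (array SD as covariate) to 6663 (array weights) without p62, main 4172, and from 2541 to 9464 for the mean HD effect, main 6728. Loss of p62 gave 1 to 4 genes in the non-transgenic and 1 to 2 in the HD mice, and the difference of the HD effects 0 to 1. At 0.01 and 0.1 the HD effect with p62 gave 276 and 2799 genes, that without p62 969 and 6465, and the mean HD effect 3224 and 8780; loss of p62 in HD mice gave 1 and 3. The replicate block gave 709 and 3054 for the HD effects. The array of smallest SD in each of 3 groups was left out as an alternative added after seeing the data, chosen by its SD.

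Uncalled differences changed sign as follows, with no call in either state; the cause was not tested. HD effect with p62: Rasgrp3 gave -0.02 with quantile normalization and -0.05 with array SD (single omissions -0.03 to 0.15), and Rasgrf1 0.03 without the 3 arrays of smallest SD (-0.13 to 0.02). HD effect without p62: Rasgrf2 gave 0.07 without the array of smallest SD in 3 groups (-0.24 to 0.16), and Rasd1 ran from -0.17 to 0.02. Loss of p62 in non-transgenic mice: Rap1gap gave 0.01 with quantile normalization, array weights and array SD, and 0.16 and 0.06 without either set of 3 arrays (-0.15 to 0.08). There, Rasd1 gave 0.05 with array weights (-0.17 to 0.03), Rasgrp3 -0.02 with the choroid plexus mean as covariate (-0.02 to 0.05) and Rasgrp2 0.01 without the 3 arrays of smallest SD. Single omissions there ran from -0.03 to 0.09 for Rasd2, -0.05 to 0.09 for Rasgrp1 and -0.3 to 0.05 for Rasgrf2. Loss of p62 in HD mice: Rasgrp2 gave -0.02 with array weights and without the 3 arrays of smallest SD, and -0.01 without the array of smallest SD in 3 groups (-0.02 to 0.08), and Rasgrf1 ran from -0.04 to 0.02. Difference of the HD effects: Rasgrp2 gave -0.03 without the 3 arrays of smallest SD, and Rasgrp1 ran from -0.11 to 0.03. Mean HD effect: Rasgrp3 gave -0.07 with quantile normalization, -0.02 with equal medians, -0.12 with array SD and 0 with the choroid plexus mean (-0.03 to 0.06). Array number limits precision, and the probe sets of Rasd1 and Rasgrf2 were dim, at percentiles 42.7 and 48.9 of the array.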
